A study of Mus musculus with 20 samples.

Results

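This account compares regulatory T (Treg) cells after 48 h of stimulation in culture (DMSO_48h, 3 arrays) with the same kind of cell at the start (DMSO_0h, 3 arrays). Every gene with a named probe set was a member: control probe sets were left out, and a gene with several probe sets was represented by the one with the highest mean. This gave 21928 genes, the same number as in the whole series, measured here on 6 of its 20 arrays. The cells of all groups were CD4+YFP+CD44loCD62Lhi cells, called cTreg in the labels, from the spleen and pLN of C57BL/6J mice with the Foxp3YFP-Cre allele, which expresses YFP and Cre recombinase from Foxp3. The DMSO_48h cells had been cultured for 48 h with anti-CD3 and anti-CD28 antibodies (10 ug/ml) plus 200 U/ml of interleukin-2 (IL-2), and the labels give the DMSO_0h cells no stimulation. DMSO, the vehicle, is named in both groups. Another vehicle group, DMSO_18h (3 arrays), had the same stimulation for 18 h, and the other arrays, of cells given prenylation inhibitors, served only to estimate the spread between arrays.

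Treg cells are CD4 T cells that hold back other immune cells, and their identity depends on the transcription factor Foxp3. Cells with low CD44 and high CD62L are central, resting Treg cells that circulate through lymphoid organs under factors such as Klf2 and Foxo1. When the T cell receptor and CD28 are engaged with IL-2 present, such cells enlarge, raise their metabolism, divide and can take on effector features.

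All levels below are deposited log2 values, and each difference is DMSO_48h minus DMSO_0h on that log2 scale unless another pair is named. A gene was called when limma's adjusted p was under 0.05. "Rose" and "fell" are used of called genes alone. The labels do not tie replicates to separate mice or cultures, so the p-values describe how far these arrays spread, which may be technical. No group was cultured without antibodies and IL-2, so time in culture, IL-2 and receptor stimulation cannot be told apart. In these bulk samples fewer cells of a type and less RNA per cell cannot be told apart either. The 3 DMSO_0h arrays correlated with each other at 0.9896 to 0.9922 across genes and the 3 DMSO_48h arrays at 0.9949 to 0.9962. The negative controls had mean medians of 5.64 at 0 h, 5.17 at 18 h and 5.18 at 48 h. A gene at or below its group's value is described as at background, where the size of its difference is limited. A small share of the negative controls read above 9.02 to 9.11 on the 0 h arrays and above 8.12 to 8.20 on the 48 h arrays. A gene described as above background is therefore above the median only, which does not by itself show that its transcript was detected.

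DMSO_0h replicate 2 stood apart from the other fresh arrays. On it, 28 genes above background lay at least 2-fold below both other fresh arrays, against 3 genes on replicate 1 and 2 genes on replicate 3. Of the 28 genes, 9 belong to the list of 29 AP-1, EGR and NR4A immediate response genes, and 25 of those 29 were lowest on replicate 2. Several results that rest on this array are given with and without it, and the others with all arrays.

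Between the fresh and the 48 h cells, 11599 of 21928 genes were called (52.9%), of which 4940 rose (22.5%) and 6659 fell (30.4%). Among changes of at least 2-fold the balance was the other way, with 1908 genes higher (8.7%) and 753 lower (3.43%). Rises were also the larger changes: 494 genes rose and 99 fell by at least 2 on the log2 scale, and 32 rose and 3 fell by at least 4. The arrays of the 2 groups overlapped for 5 of the 2661 genes called at least 2-fold. Of the rises of at least 2-fold, 305 were of genes at background in the fresh cells and above it at 48 h, and 61 falls of at least 2-fold ended at background. The split of all calls depends on how arrays are scaled and on dim genes, since 42.6% of calls were rises as deposited, 51.5% with dim genes filtered out, 51.9% with arrays centred on the median of gene probe sets and 63.7% with arrays centred on the median of all probe sets. The last centring moved the median of all genes by 0.17, from -0.13 to 0.04, so small differences in gene lists are read against the median of -0.13. Counts of called genes in the lists below are likewise read against the shares of all genes, 22.5% higher and 30.4% lower.

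**Figure D1:**
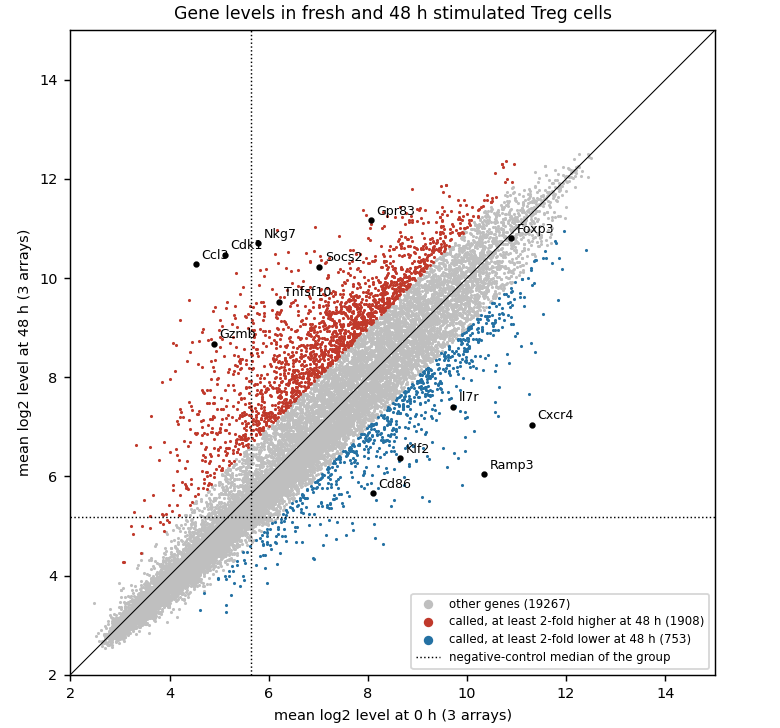
Mean log2 level of each of 21928 genes at 0 h (horizontal) and 48 h (vertical), each the mean of 3 arrays, with the diagonal of equal levels and dotted lines at the negative-control median of each group. The 1908 genes called at least 2-fold higher reach farther from the diagonal than the 753 called at least 2-fold lower, and Foxp3 lies close to it.

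The genes that define the sort and the Treg identity moved in both directions while Foxp3 itself was not called. Of 23 measured genes on this list, 9 rose and 8 fell. Foxp3, the defining transcription factor of Treg cells, read 10.96, 10.81 and 10.88 at 0 h and 10.80, 10.77 and 10.87 at 48 h. The arrays overlapped, and the difference of -0.07 ± 0.08 (SE) was not called (limma adjusted p = 0.451). Ctla4, the inhibitory receptor that takes CD80 and CD86 from antigen-presenting cells, differed by 0.05 and Cd3d, a chain of the T cell receptor complex, by 0.04, and neither was called.

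Several Treg-associated genes fell beside it. Nrp1, a surface receptor of thymus-derived Treg cells, read 8.63, 8.97 and 8.51 at 0 h and 7.64, 7.25 and 7.53 at 48 h. All 48 h arrays lay below all fresh arrays, and Nrp1 fell by 1.23 (adjusted p = 6.82e-07). The Ikaros family factors Ikzf2 (Helios) and Ikzf4 (Eos), which act with Foxp3, differed by -0.90 and -0.96, and Nt5e, which encodes the adenosine-producing enzyme CD73, by -0.84. Cd44, low on the sorted cells, rose from 7.14, 7.03 and 7.49 to 9.38, 9.32 and 9.29, a difference of 2.11 ± 0.12 (SE).

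Other Treg-associated genes rose. Gpr83, a G protein-coupled receptor with high expression in Treg cells, read 8.27, 7.78 and 8.16 at 0 h, 11.81, 11.81 and 11.91 at 18 h and 11.16, 11.12 and 11.21 at 48 h. The 18 h arrays were the highest, and the 48 h arrays were 8.54-fold above the fresh ones. Socs2, a STAT5-induced inhibitor of cytokine signalling, rose by 3.21 ± 0.08 (SE), Il2ra, the high-affinity IL-2 receptor chain, by 2.32 from background, and Capg, an actin-capping protein, by 2.13. The background reading of Il2ra is that of its probe set and does not show that fresh cells lacked the transcript. Il2rb, the receptor's signalling beta chain, rose by 0.31, and Il2rg, the common gamma chain, was not called at 0.15.

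Genes of other cell types were dim. Their sums are set beside a negative-control median that was itself lower at 48 h (5.18) than at 0 h (5.64). Of 8 B cell markers 4 fell (1 with arrays centred on all probe sets), with summed log2 levels of 46.98 to 48.08 at 0 h and 43.74 to 45.11 at 48 h, and Ms4a1 was at background in both groups. Of 12 myeloid and dendritic markers 9 fell and Cst3 rose, with sums of 71.07 to 74.06 and 66.10 to 66.53, and Lyz2, Itgam and Flt3 at background in both. Red cell and platelet markers fell in 5 of 8 cases, with sums of 48.61 to 52.71 and 43.15 to 44.68. Hbb-bs, a beta globin, fell by 2.48, while Ppbp was at background throughout. Stroma markers fell in 5 of 7 cases, with sums of 45.54 to 47.65 and 42.59 to 43.45. Of 8 CD8 T and NK cell markers Eomes rose and Cd8b1 fell, with sums of 36.49 to 38.79 and 38.63 to 39.67, and Klrd1 and Klrk1 at background in both. What part other cells had in any result was not tested.

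**Figure D2:**
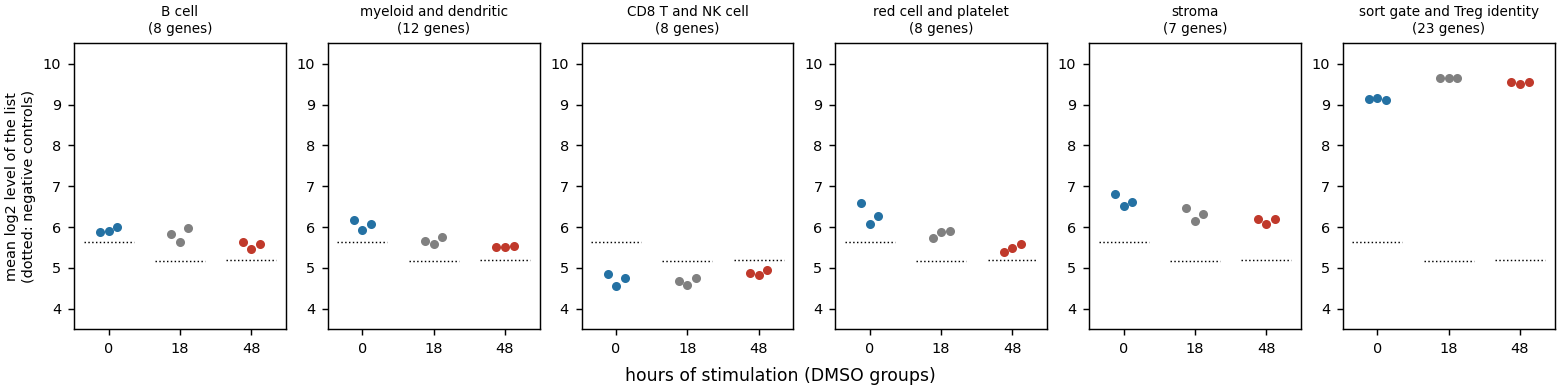
Mean log2 level of each marker list on each DMSO array (1 point per array) at 0, 18 and 48 h, with dotted lines at the negative-control median of the group. The B cell, myeloid, red cell and stroma lists are lower on every 48 h array than on every fresh array, and the CD8 T and NK cell list is below the negative controls throughout.

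Of the functional lists, that of cell division had the highest median difference. Of 57 measured genes of mitosis and cytokinesis 55 rose, with a median difference over the list of 3.33, against -0.13 over all genes. Mki67, the nuclear protein used to mark cycling cells, read 7.53, 8.28 and 7.91 at 0 h, 10.41, 10.50 and 10.35 at 18 h and 11.38, 11.40 and 11.37 at 48 h. The 3 groups did not overlap and stood in order of time, and the 48 h arrays were 11.1-fold above the fresh ones (adjusted p = 2.86e-14). Bub1, a kinase of the spindle checkpoint, read 4.28, 4.51 and 3.84 at 0 h and 9.01, 9.14 and 9.33 at 48 h, so it was at background in fresh cells and rose by 4.95 ± 0.17 (SE). The centromere motor Cenpe, the microtubule-depolymerising kinesin Kif2c and Sgo1, the protector of centromere cohesion, rose by 4.27, 4.51 and 4.46. The list had 2 exceptions, Pttg1 (securin) and the condensin subunit Smc4, which fell by 0.63 and 0.44.

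The DNA replication machinery rose in 46 of 48 cases, with a median of 1.90. Cdc6, which loads the replicative helicase, Pole, the leading-strand polymerase, and Prim1, the primase, rose by 3.46, 3.25 and 3.28. Mcm2, a subunit of that helicase, rose by 1.98, and Pcna, the sliding clamp, by 0.61. Pold2 and Rpa1 were not called, at -0.06 and 0.17. DNA repair genes rose in 42 of 44 cases with a median of 1.25, among them the nuclease Exo1 (4.53) and Brca2 (3.38), which acts in recombination.

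Of 18 measured histone genes, most of them expressed in S phase, 15 rose and 1 fell, with a median of 1.91 at 48 h and 0.81 at 18 h. H3c8 rose by 3.04, H2bc3 by 2.53 and H1f0, a linker histone, by 3.05 from background. The variant H2az2 fell by 0.54 and H2az1 was not called at 0.14. Near-identical histone copies can share signal, so values of single histone genes are uncertain.

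Of 34 G1 cyclins, E2F factors and cell cycle inhibitors 24 rose and 5 fell. Ccne2, an S phase cyclin, Cdc25a, the phosphatase that activates cyclin-dependent kinases, and the transcription factors E2f3 and E2f8 rose by 3.00, 2.39, 2.81 and 4.76. Cdkn1b (p27), an inhibitor of those kinases, read 9.93, 10.27 and 9.93 at 0 h and 8.42, 8.20 and 8.24 at 48 h. Every 48 h array was below every fresh array, and Cdkn1b fell by 1.76. Cdkn1a (p21), another such inhibitor, went the other way, at 9.52, 8.19 and 9.28 at 0 h, 8.55, 8.82 and 8.84 at 18 h and 11.18, 11.07 and 11.20 at 48 h. The 18 h arrays lay within the range of the fresh ones only because DMSO_0h replicate 2 read 8.19, and all of them were below the other fresh arrays. The 48 h arrays lay above both groups, with a difference from 0 h of 2.15 ± 0.21 (SE), or 1.75 without DMSO_0h replicate 2. The pocket proteins Rb1 and Rbl2, which restrain E2F factors, differed by -0.91 and -0.57, and Ccng2, a cyclin of resting cells, by -1.63.

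The promoters of these genes were searched for 4 motifs known from cell cycle and growth genes in mammals. E2F sites were searched as TTTCCCGC, TTTCGCGC, TTTGCCGC and TTTGGCGC, cell cycle homology regions (CHR) as TTTGAA and TTCGAA, the CCAAT box as CCAAT and the E-box, a site of MYC and related factors, as CACGTG. Both strands were read, and none of these motifs contains another. RefSeq windows of 250 bases before to 50 after the start were found for 16762 of 21928 genes (build GRCm38.p6, the first window listed for each gene). An E2F octamer was present in 13 of 38 windows of the replication list (34.2%), in 7.7% of the windows of genes at least 2-fold higher, in 2.4% of those at least 2-fold lower and in 3.0% of all windows. A CHR hexamer was present in 36 of 47 windows of the mitosis list (76.6%) against 17.5% of all windows. These shares describe letters in a window and not factors bound there.

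The following windows are shown for genes with large changes, with matches in capitals and all other bases in lower case. Cdk1, the main mitotic kinase, and Kif15, a spindle kinesin, each hold an E2F octamer and CHR hexamers, Cdk1 with CCAAT boxes as well, E2f8 a CHR hexamer and a CCAAT box, and Hells, a chromatin remodeller, an E2F octamer. In Kif15 the octamer and the second CHR hexamer adjoin. Ldha, the lactate dehydrogenase described with glycolysis, holds E-boxes, and Klf2, a quiescence factor that fell, holds none of the motifs.
Cdk1 (chr10:69352863-69353162, minus strand): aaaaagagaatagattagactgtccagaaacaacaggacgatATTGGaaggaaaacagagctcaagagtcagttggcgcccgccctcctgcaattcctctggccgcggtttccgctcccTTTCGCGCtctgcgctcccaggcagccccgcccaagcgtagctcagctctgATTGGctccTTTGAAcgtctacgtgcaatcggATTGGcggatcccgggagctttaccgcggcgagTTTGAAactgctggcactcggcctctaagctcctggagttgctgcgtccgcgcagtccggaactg
Kif15 (chr9:122950831-122951130, plus strand): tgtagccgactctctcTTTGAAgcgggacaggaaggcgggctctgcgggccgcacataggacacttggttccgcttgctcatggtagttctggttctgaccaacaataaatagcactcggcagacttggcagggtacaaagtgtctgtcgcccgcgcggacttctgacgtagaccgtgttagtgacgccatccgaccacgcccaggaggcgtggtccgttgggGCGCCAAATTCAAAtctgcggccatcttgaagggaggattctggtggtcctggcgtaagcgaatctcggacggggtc
E2f8 (chr7:48881547-48881846, minus strand): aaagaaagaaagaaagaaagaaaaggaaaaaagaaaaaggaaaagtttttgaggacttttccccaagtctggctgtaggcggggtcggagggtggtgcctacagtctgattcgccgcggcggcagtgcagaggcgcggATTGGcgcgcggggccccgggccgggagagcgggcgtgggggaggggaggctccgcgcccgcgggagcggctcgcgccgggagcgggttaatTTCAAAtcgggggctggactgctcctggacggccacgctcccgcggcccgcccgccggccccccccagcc
Hells (chr19:38930740-38931039, plus strand): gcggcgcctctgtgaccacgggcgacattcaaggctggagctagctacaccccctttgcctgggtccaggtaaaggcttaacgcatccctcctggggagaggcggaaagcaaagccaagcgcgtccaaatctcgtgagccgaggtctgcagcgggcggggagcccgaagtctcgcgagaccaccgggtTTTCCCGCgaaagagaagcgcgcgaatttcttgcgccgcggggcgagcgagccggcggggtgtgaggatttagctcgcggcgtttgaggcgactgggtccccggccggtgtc
Ldha (chr7:46845554-46845853, plus strand): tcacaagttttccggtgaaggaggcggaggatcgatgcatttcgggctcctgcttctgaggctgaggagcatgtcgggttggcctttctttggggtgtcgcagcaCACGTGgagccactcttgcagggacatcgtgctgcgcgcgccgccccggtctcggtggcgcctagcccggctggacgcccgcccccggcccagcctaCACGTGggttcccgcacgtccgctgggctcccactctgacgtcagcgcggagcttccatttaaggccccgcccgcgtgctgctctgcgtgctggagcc

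Cdk1 read 4.64, 5.83 and 4.87 at 0 h and 10.42, 10.52 and 10.47 at 48 h. Kif15 read 4.12, 5.04 and 4.05 at 0 h and 9.43, 9.58 and 9.67 at 48 h. Hells read 4.44, 4.73 and 4.82 at 0 h and 8.86, 8.90 and 8.99 at 48 h. All 3 genes were at background in the fresh group mean, and no 48 h array overlapped a fresh array. The adjusted p-values were 6.25e-14, 8.21e-14 and 1.43e-15. The 847 genes that were at least 2-fold higher than at 0 h and called higher again between 18 and 48 h held a CHR hexamer in 27.6% of their 678 windows. The 1046 genes at least 2-fold higher but not called between 18 and 48 h held this hexamer in 15.3% of 865 windows.

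Genes for making ribosomes rose together, while most ribosomal protein genes were not called. Of 43 genes of ribosome biogenesis and RNA polymerase I, 39 rose and none fell, with a median of 1.29. Dkc1, the pseudouridine synthase of the nucleolus, rose by 3.14, and Utp20 and Nhp2, which process and modify ribosomal RNA, by 2.33 and 2.31. Npm1 and Nop56 were not called, at 0.19 and -0.04. Of 49 cytosolic ribosomal protein genes 6 rose, 3 fell and 40 were not called, with a median of 0.02. Centred on the median of all probe sets, 25 of the 49 were called higher and 0 lower, at a median of 0.19, and with the 6 arrays fitted alone 1 rose and 1 fell, so no direction is given for this family. These genes have many near-identical pseudogenes, which makes single members uncertain.

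Translation and protein folding genes also rose. All 19 measured aminoacyl tRNA synthetases, which charge tRNAs with amino acids, rose, with a median of 1.09 and with Farsb (2.28) and Vars (1.99) highest. Of 27 translation factors 20 rose, among them Eif2b3 (3.18), part of the exchange factor that recharges the initiator complex, and Eif4ebp1 (1.49), an inhibitor of cap-dependent initiation. Eif4g3, a scaffold of the cap complex, fell by 0.54. Proteasome subunits rose in 36 of 38 cases with a median of 0.70, so the rise was wide but mostly under 2-fold. Of 31 cytosolic chaperones 24 rose, led by subunits of the CCT chaperonin (Tcp1 2.62, Cct7 2.05, Cct6a 2.02), and Dnajb1, Hspb1 and Hsf1 were called lower (-0.35, -0.35 and -0.26), calls that centring on all probe sets ended. Splicing and RNA export genes rose in 39 of 44 cases, such as Lsm2 (2.12) and the nuclear import factor Kpna2 (2.26).

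Of 14 MYC network genes 5 rose and 8 fell (6 and 5 with arrays centred on all probe sets). Myc, which drives growth genes, read 10.87, 9.24 and 10.74 at 0 h, 11.50, 11.64 and 11.47 at 18 h and 11.46, 11.49 and 11.38 at 48 h. Fresh replicate 2 was the lowest array, all 48 h arrays were above all fresh ones, and the rise of 1.16 ± 0.25 (SE) became 0.64 without that replicate (adjusted p = 4.73e-06). Its partner Max rose by 0.51, while Mxd4, Mxi1, Mnt and Mxd1, which pair with Max and oppose MYC, differed by -2.33, -1.37, -0.88 and -0.75. Mxd3, the family member known from S phase, rose by 0.89, and Mycn stayed at background. E-boxes were present in 11 of 38 windows of the ribosome biogenesis list (28.9%) and in 8.1% of all windows. Genes at least 2-fold higher and at least 2-fold lower held them in similar shares of windows, 10.5% and 9.8%. The other lists searched ranged from 8.3% (quiescence) to 19.2% (cholesterol). Whether MYC acts at these sites was not tested.

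**Figure D3:**
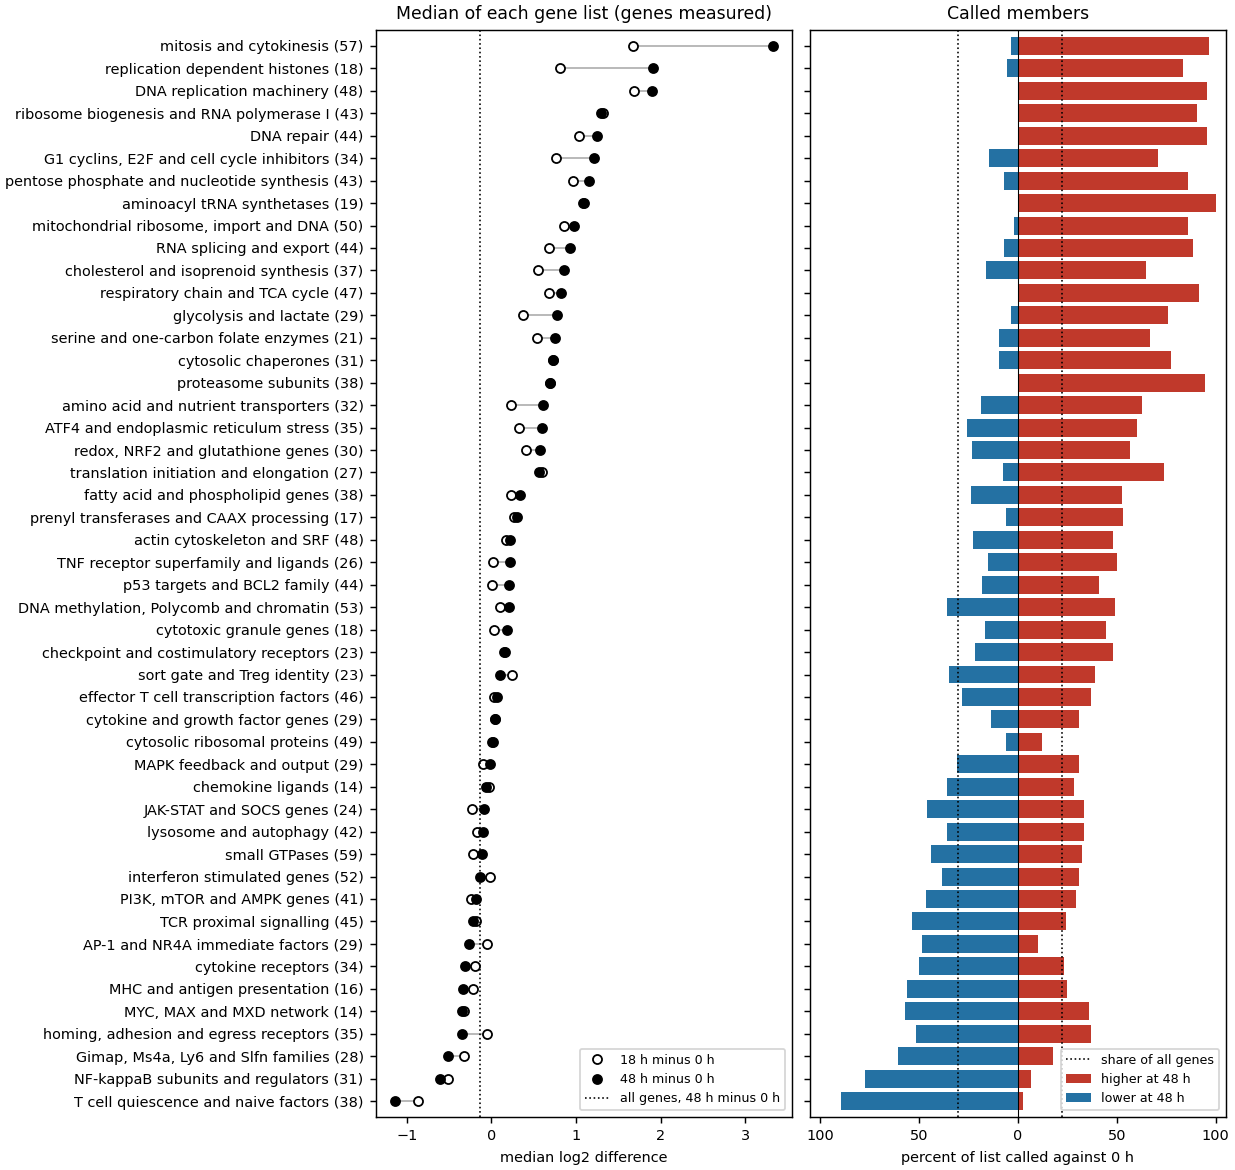
Left, the median log2 difference from 0 h of each functional gene list at 18 h (open) and 48 h (filled), with the number of genes measured and a dotted line at the median of all genes at 48 h (-0.13). Right, the percent of each list called higher (right of 0) or lower (left of 0) at 48 h, with dotted lines at the shares of all genes (22.5% and 30.4%); mitosis has the highest and the T cell quiescence list the lowest median.

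Energy and building block metabolism rose across several branches. Of 29 glycolysis and lactate genes 22 rose and 1 fell, with a median of 0.78. Hk2, the inducible hexokinase, read 6.00, 4.19 and 5.29 at 0 h and 9.50, 9.59 and 9.45 at 48 h. Replicate 2 was the lowest fresh array, and the fresh group mean, at background, included it. Hk2 rose by 4.35 ± 0.27 (SE), or by 3.87 without DMSO_0h replicate 2. The enzymes Tpi1, Pgk1 and Pgam1 rose by 3.30, 3.15 and 1.94. Ldha read 9.59, 9.42 and 9.68 at 0 h and 10.87, 10.81 and 10.85 at 48 h, with no overlap, and rose by 1.28. The pyruvate dehydrogenase subunits Pdha1 and Pdhb and the pyruvate carrier Mpc2 were not called, at 0.19, 0.14 and 0.00. Eno2, an enolase isoform, fell by 0.44, and this call was lost under some settings.

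Nucleotide synthesis genes rose in 37 of 43 cases. The ribonucleotide reductase subunits Rrm1 and Rrm2 rose by 3.31 and 3.53, and thymidylate synthase Tyms by 3.17. The p53-induced subunit Rrm2b was not called at -0.28, and Ctps2, a CTP synthase, fell by 1.52. Serine and one-carbon enzymes rose in 14 of 21 cases, with Phgdh and Psat1, which make serine, at 2.76 and 2.53, and the mitochondrial Shmt2 and Mthfd2 at 1.92 and 1.84.

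Most mitochondrial genes measured rose. Respiratory chain and TCA cycle genes rose in 43 of 47 cases with none lower, at a median of 0.83, among them Idh3a (1.99) and the succinate dehydrogenase subunit Sdhd (1.73). Genes of the mitochondrial ribosome, import and DNA rose in 43 of 50 cases, at a median of 0.97, such as the chaperonin Hspd1 (2.40). Polg2, the accessory subunit of the mitochondrial DNA polymerase, was the exception and fell by 1.92. Antioxidant genes rose in 17 of 30 cases, with Txnrd1 at 1.92 and Prdx4 at 1.97, whereas the ferritin chain Fth1 and the glutathione synthesis subunit Gclc fell by 0.93 and 0.67.

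Of 37 genes of the cholesterol list 24 rose and 6 fell. The synthesis enzymes Idi1, Sqle, Cyp51 and Lss rose by 3.02, 2.34, 2.03 and 1.89. Abca1, the cholesterol exporter, read 6.26, 6.43 and 5.99 at 0 h and 4.32, 4.59 and 4.43 at 48 h. It was above background in fresh cells and at background at 48 h, and fell by 1.78. Mylip, a ubiquitin ligase, and the exporter Abcg1, both known targets of the LXR sterol sensors, differed by -2.87 and -0.81, and Nr1h2, which encodes LXR beta, by -0.63. A CCAAT box was present in 20 of 26 windows of this list (76.9%) and in 38.9% of all windows. The box was also in 68.1% of mitosis, 63.2% of replication and 57.6% of DNA repair windows, so a high share was not particular to this list. Quiescence windows held it in 47.2% and ribosome biogenesis windows in 28.9% of cases.

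Of 38 fatty acid and phospholipid genes 20 rose and 9 fell (22 and 4 with arrays centred on all probe sets). Scd1, which desaturates stearate, read 4.90, 5.11 and 4.87 at 0 h, 5.39, 5.19 and 5.40 at 18 h and 7.33, 8.53 and 7.75 at 48 h. It was at background in the fresh and near it in the 18 h group and rose late, by 2.91 ± 0.21 (SE). The desaturase Fads2 and the elongase Elovl6 rose by 3.66 and 3.00, while Elovl5, another elongase, fell by 0.76. Pcyt1a, the rate-limiting enzyme of phosphatidylcholine synthesis, rose by 2.76. Dgat1 and Dgat2, which make triglyceride for storage, differed by -1.87 and -1.38, and the triglyceride lipase Pnpla2 by -0.57, all called lower. Acly, which supplies cytosolic acetyl-CoA, was not called at 0.02.

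Uptake genes rose in 20 of 32 cases and fell in 6 (3 with arrays centred on all probe sets). Tfrc, the transferrin receptor for iron, read 5.77, 5.95 and 5.94 at 0 h and 9.41, 9.60 and 9.54 at 48 h, a rise of 12.3-fold with no overlap. The purine transporter Slc43a3 and the nucleoside transporter Slc29a1 rose by 3.11 and 2.54, and the neutral amino acid carriers Slc38a1 and Slc7a5 by 1.84 and 0.88. Slc38a2, a related carrier, fell by 0.81, and Slc3a2, the heavy chain that partners Slc7a5, was not called at 0.20. In the endoplasmic reticulum list 21 of 35 rose and 9 fell. The chaperone cofactor Sdf2l1 and the disulphide isomerases Pdia6 and Pdia4 rose by 2.53, 1.41 and 1.33, but the stress-induced Ppp1r15a, Dnajb9 and Ddit3 (CHOP) differed by -2.10, -1.95 and -0.95, all lower, and the stress factor Atf4 was not called at -0.02.

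Genes that keep T cells resting and recirculating fell. Of 38 quiescence and naive T cell genes 34 fell and Cdkn2d rose, with a median of -1.14. Klf2, which maintains expression of egress receptors, read 8.61, 8.64 and 8.73 at 0 h and 6.12, 6.48 and 6.50 at 48 h. Every 48 h array was below every fresh array, and Klf2 fell by 2.29 (adjusted p = 3.27e-11). Its promoter window (chr8:72318812-72319111, plus strand) reads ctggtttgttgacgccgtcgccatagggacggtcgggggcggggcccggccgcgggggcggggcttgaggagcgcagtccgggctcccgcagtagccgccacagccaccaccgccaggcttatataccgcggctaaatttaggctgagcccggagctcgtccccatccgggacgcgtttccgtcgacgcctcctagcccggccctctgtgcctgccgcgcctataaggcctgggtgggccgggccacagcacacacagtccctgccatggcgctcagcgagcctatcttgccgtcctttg. Tsc22d3, a glucocorticoid-induced inhibitor of T cell activation, Pik3ip1, an inhibitor of PI3 kinase, and Satb1, a chromatin organiser of T cells, differed by -3.41, -3.23 and -2.34. Tcf7 (TCF-1) read 10.69, 10.87 and 10.68 at 0 h, 9.88, 9.98 and 10.00 at 18 h and 9.27, 9.10 and 9.11 at 48 h, which fell in order of time without overlap, and Lef1 and Foxo1 differed by -0.90 and -0.90. Bach2, a repressor of effector genes, and Bcl11b, which maintains T cell identity, were not called, at 0.17 and -0.23.

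Homing and egress receptors changed in both directions. Of 35 genes 13 rose and 18 fell (16 and 13 with arrays centred on all probe sets). With dim genes filtered out, 29 were tested, of which 13 rose and 13 fell. The median was -0.35 over the 35 genes and 0.15 over the 29, so the list as a whole is given no direction. S1pr1, the receptor by which lymphocytes leave lymphoid organs, read 10.36, 10.76 and 10.59 at 0 h and 7.33, 7.22 and 7.37 at 48 h, with 9.62-fold lower levels at 48 h and no overlap. Ccr7, which directs cells into lymph nodes, fell by 1.17, and the integrin chain Itga4 by 1.06. Ccr4 and Ccr8, chemokine receptors of activated Treg cells in skin and inflamed tissue, rose by 2.62 and 2.33, Ccr4 from background.

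The genes through which cells receive cytokine signals changed in a mixed way. Of 34 cytokine receptor genes 8 rose and 17 fell (12 and 14 with arrays centred on all probe sets). Il7r, the IL-7 receptor chain of resting T cells, read 9.58, 9.86 and 9.72 at 0 h, 7.67, 7.28 and 7.44 at 18 h and 7.54, 7.25 and 7.45 at 48 h. The 18 h and 48 h arrays overlapped and all lay below the fresh ones, with a difference of -2.31 ± 0.15 (SE). Il6ra, Ifngr1, Ifngr2 and Il1rl1 (ST2, the IL-33 receptor) differed by -1.69, -1.38, -1.58 and -3.05. Il12rb2, the signalling chain of the IL-12 receptor, read 7.96, 7.66 and 7.78 at 0 h, 8.28, 8.49 and 8.37 at 18 h and 10.17, 10.19 and 10.24 at 48 h. Its rise came mostly after 18 h, whereas its partner Il12rb1 rose by 3.26 with 2.93 of that at 18 h. Il10ra, a chain of the IL-10 receptor, rose by 0.80, and Il4ra and Ifnar2 were not called, at 0.18 and -0.03.

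Of 24 JAK, STAT and SOCS genes 8 rose and 11 fell. Stat5a, which carries IL-2 signals to the nucleus, read 10.28, 10.20 and 10.26 at 0 h and 8.90, 8.78 and 8.66 at 48 h, with all 48 h arrays below the fresh ones and a difference of -1.47 ± 0.11 (SE). Stat5b and Stat4, the latter used by IL-12, differed by -1.15 and -2.19, and the kinase Jak2 by -1.46. Jak3, the kinase bound to the common gamma chain, rose by 0.95, and the feedback inhibitor Socs1 by 2.04. Cish, another STAT5 target, was not called at 0.37, and Pim1, a kinase induced by STAT5, fell by 1.13. The list's median of -0.08 became 0.09 when arrays were centred on all probe sets, so the list as a whole is given no direction.

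**Figure D4:**
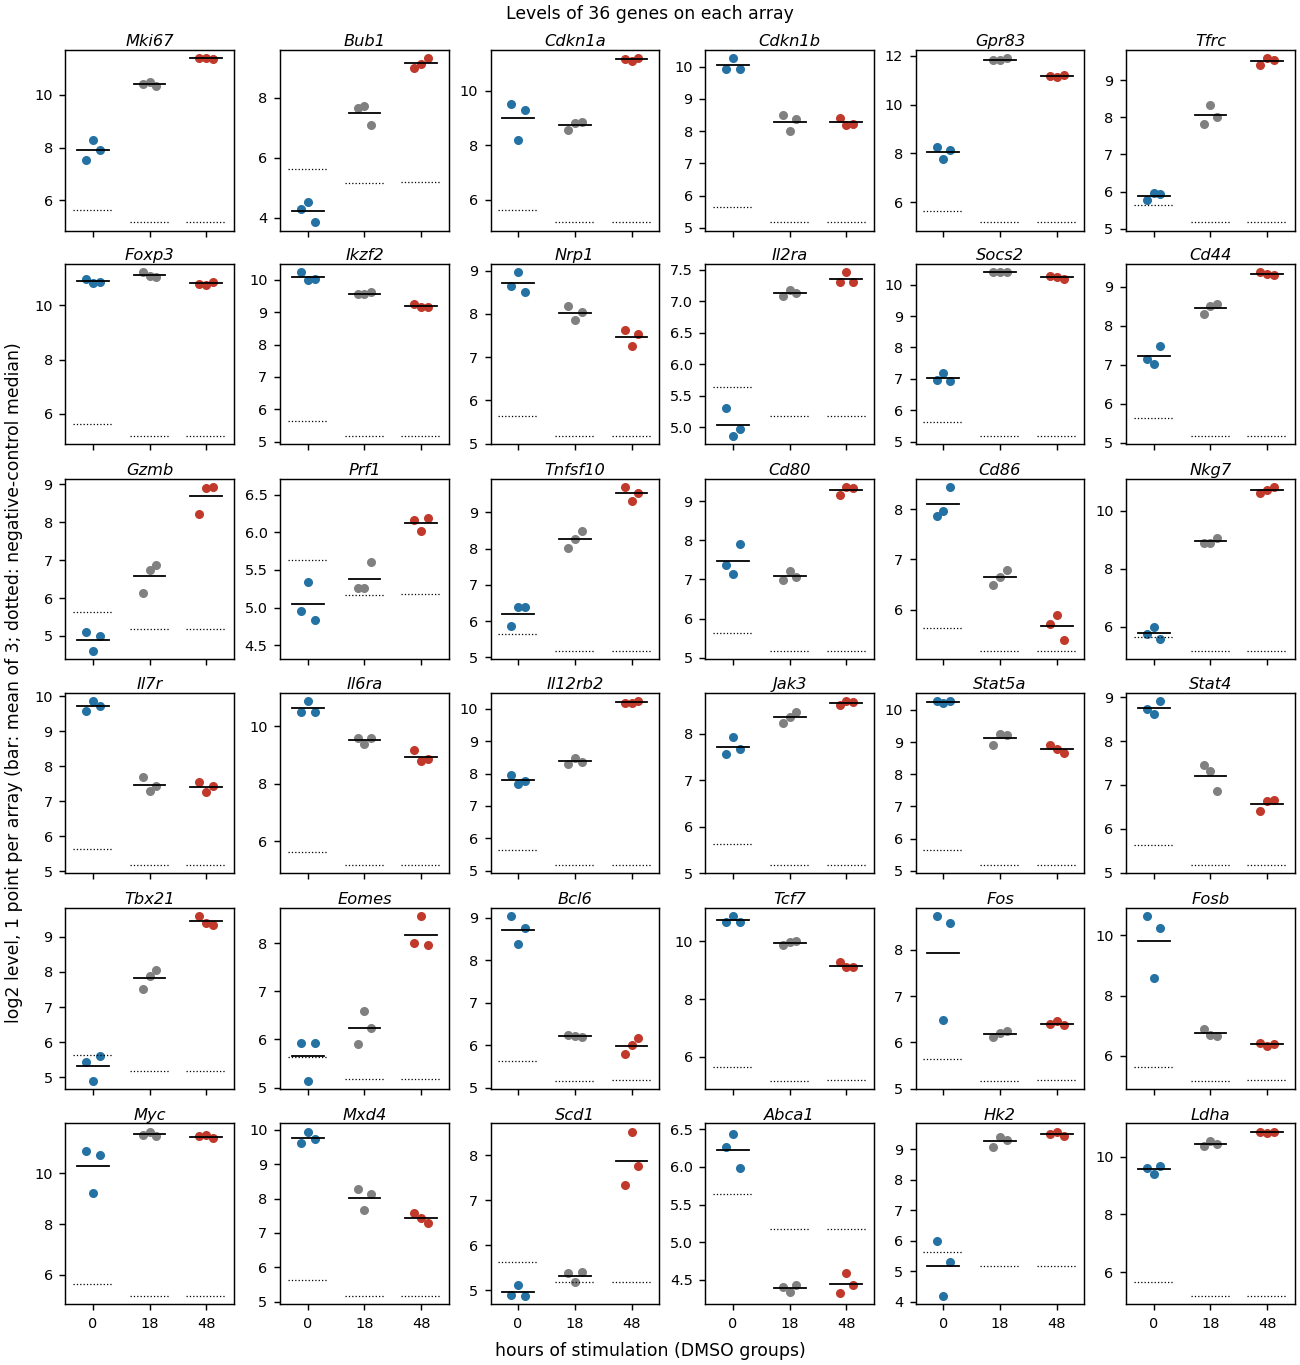
Log2 level on every array (1 point each) at 0 h (blue), 18 h (grey) and 48 h (red) of 36 genes, with bars at the mean of 3 arrays and dotted lines at the negative-control median of each group; the vertical scale differs between genes. Bub1, Tbx21, Gzmb and Hk2 start at background in the fresh group, Il7r and Bcl6 fall by 18 h, Cd80, Cdkn1a and Scd1 are highest at 48 h, and Fos, Fosb and Myc are lowest of the fresh arrays on replicate 2.

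Effector products rose selectively. Of 18 cytotoxic granule genes 8 rose and 3 fell. Gzmb, which encodes the granzyme B protease, read 5.11, 4.61 and 4.996 at 0 h, 6.14, 6.74 and 6.86 at 18 h and 8.21, 8.89 and 8.93 at 48 h. It was at background in fresh cells, higher at 18 h and highest at 48 h without overlap, a difference of 3.77 ± 0.25 (SE) (adjusted p = 1.34e-10). Nkg7, a granule membrane protein, rose by 4.92, Ctsc, which activates granzymes, by 2.06, Fasl, the death ligand, by 1.25, and Prf1 (perforin) by 1.08 from background. Srgn, the proteoglycan that packs granules, fell by 0.98. Beside these, the CD8 T and NK cell markers Cd8a, Klrd1 and Klrk1 were not called, at -0.12, -0.04 and 0.00. Cd8b1 fell by 0.49, while Eomes, on the same marker list, rose by 2.51. Klrd1 and Klrk1 were at background in both groups, so their flat values say little. Whether other cells contributed to the granule genes was not tested.

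Among 29 cytokine and growth factor genes 9 rose and 4 fell. Il10, a suppressive cytokine, read 5.18, 5.05 and 4.84 at 0 h, 5.31, 5.50 and 5.001 at 18 h and 6.92, 6.43 and 6.44 at 48 h. It was at background at 0 h, close to it at 18 h and higher on all 48 h arrays, with a difference of 1.57 ± 0.19 (SE). Ifng, which encodes interferon gamma, and Spp1 (osteopontin) rose by 2.24 and 2.30, both from background and both mostly after 18 h. Lta and Mif rose by 1.60 and 1.78, and Tgfb1 was not called at -0.14. Areg, a growth factor by which tissue Treg cells aid repair, fell by 1.45, and differed by -1.98 without DMSO_0h replicate 2. Without DMSO_0h replicate 2, 9 genes of this list were called lower, and the rise of Tnf, 1.93 with all arrays, was 1.33. Of the 29 genes 13 were at background in both groups. With dim genes filtered out and all arrays kept, 15 were tested, of which 8 rose and 3 fell.

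Of 14 chemokine ligands, Ccl3, Ccl4 and Ccl1 rose by 5.75, 4.27 and 2.66, all from background, and Ccl20 by 0.71. Ccl4, which attracts T cells and monocytes, read 5.10, 5.91 and 5.23 at 0 h and 9.73, 9.66 and 9.66 at 48 h, without overlap. The 5 ligands called lower had differences of -0.28 to -0.50, and 2 of them were still called with arrays centred on gene probe sets. Ccl22 and Xcl1 were not called, at 0.03 and 0.20.

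Costimulatory and inhibitory surface genes rose in 11 of 23 cases and fell in 5. The ligands CD80 and CD86, best known from antigen-presenting cells, went opposite ways. Cd80 read 7.36, 7.13 and 7.90 at 0 h, 6.98, 7.20 and 7.06 at 18 h and 9.16, 9.37 and 9.34 at 48 h. It was highest at 48 h without overlap and rose by 1.82 ± 0.17 (SE). Cd86 read 7.88, 7.96 and 8.45 at 0 h, 6.49, 6.66 and 6.78 at 18 h and 5.71, 5.88 and 5.39 at 48 h. It went down in order of time to near background and fell by 2.43. Tigit, an inhibitory receptor of activated Treg cells, rose by 1.44, Btla by 1.17 (0.81 without DMSO_0h replicate 2) and Icos by 0.88. Vsir (VISTA), Cd96 and Cd27 fell by 1.16, 0.80 and 0.67. Pdcd1 (PD-1) was called -0.38, a call that some settings lost.

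In the TNF family 13 of 26 genes rose and 4 fell. Tnfsf10 (TRAIL), a death ligand, read 5.86, 6.39 and 6.38 at 0 h, 8.03, 8.25 and 8.49 at 18 h and 9.71, 9.32 and 9.55 at 48 h, rising in order of time without overlap by 3.32 ± 0.15 (SE), and its receptor Tnfrsf10b rose by 1.74. Tnfsf4 (OX40 ligand) read 5.95, 5.28 and 5.30 at 0 h, 4.11, 4.88 and 4.90 at 18 h and 7.94, 7.36 and 7.45 at 48 h. Its group means were at background at 0 h and 18 h, and every 48 h array was above it. Tnfrsf9 (4-1BB), a marker of recently stimulated Treg cells, rose by 1.80, and Tnfrsf4 (OX40) and Tnfrsf18 (GITR), both high on resting Treg cells, by 0.27 and 0.40. Tnfsf8 (CD30 ligand), Tnfrsf26 and Tnfrsf25 (DR3) differed by -2.98, -1.64 and -0.87.

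Transcription factors of effector T cell programmes moved in both directions, with 17 of 46 higher and 13 lower (20 and 8 with arrays centred on all probe sets). The shares of all genes were 22.5% higher and 30.4% lower. Tbx21 (T-bet), the factor of type 1 responses, read 5.45, 4.91 and 5.60 at 0 h, 7.51, 7.89 and 8.04 at 18 h and 9.58, 9.40 and 9.32 at 48 h. It rose from background in order of time by 4.11 ± 0.27 (SE). Eomes, its relative, read 5.93, 5.15 and 5.93 at 0 h, 5.91, 6.58 and 6.24 at 18 h and 8.01, 8.56 and 7.96 at 48 h, and rose mostly after 18 h, by 2.51. Irf8 and Irf4, interferon regulatory factors of activated lymphocytes, rose by 3.51 and 2.30, the latter by 1.71 without DMSO_0h replicate 2, and Prdm1 (Blimp-1), a factor of effector Treg cells, by 1.80 from background. Bcl6, which opposes Prdm1, read 9.04, 8.37 and 8.76 at 0 h, 6.25, 6.22 and 6.20 at 18 h and 5.81, 6.01 and 6.16 at 48 h. It was lower by 18 h and fell by 2.73 in all. Rora, Zeb1 and Epas1 differed by -2.62, -2.14 and -1.60, while Gata3, the factor of type 2 responses, was not called at -0.09. Tead1, which acts in the Hippo pathway, read 3.49, 3.72 and 3.69 at 0 h, 3.998, 4.16 and 3.73 at 18 h and 7.45, 7.17 and 7.05 at 48 h, at background at 0 h and 18 h, with no overlap between 48 h and either earlier group.

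The counts for immediate response genes depended on DMSO_0h replicate 2. Of 29 AP-1, EGR and NR4A genes, 3 rose and 14 fell with all arrays, and 2 rose and 18 fell without DMSO_0h replicate 2. Their median was -0.26 with that array and -0.68 without it. Fos, a subunit of the AP-1 factor, read 8.73, 6.47 and 8.59 at 0 h and 6.39, 6.45 and 6.37 at 48 h. Replicate 2 lay near the 48 h arrays and the other fresh arrays far above them, and the difference was -1.52 with it and -2.25 without it. Fosb read 10.63, 8.59 and 10.25 at 0 h and 6.42, 6.32 and 6.38 at 48 h. It was lower on every 48 h array, a difference of -3.45 with replicate 2 and -4.07 without it. Egr2, a factor induced by the T cell receptor, read 11.16, 9.37 and 10.94 at 0 h and 10.68, 10.38 and 10.51 at 48 h. It was not called at 0.03 with all arrays, but was called at -0.52 without replicate 2 (adjusted p = 0.000714). Nr4a1, which reports receptor signalling in T cells, differed by -0.93 and -1.46, and Jun by -0.26 (not called) and -0.74 (called). Fosl2 and Gadd45b fell by 2.67 and 2.18, and differed by -2.94 and -2.56 without replicate 2. Batf, which pairs with JUN proteins in effector Treg cells, rose by 1.55.

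Most NF-kappaB pathway genes fell. Of 31 genes 24 fell and 2 rose, with a median of -0.61. Tnfaip3 (A20), an induced inhibitor of the pathway, fell by 2.25, Nfkbia, which holds NF-kappaB in the cytoplasm, by 1.44, and Map3k14 (NIK), the kinase of the non-canonical branch, by 1.97. Malt1 and Traf6, which carry receptor signals to the pathway, rose by 0.44 and 0.55.

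Of 45 receptor-proximal genes 24 fell and 11 rose (16 each with arrays centred on all probe sets). Ptpn6 (SHP-1), a phosphatase that limits receptor signals, rose by 3.19 ± 0.11 (SE) from levels of 6.91, 7.51 and 7.24 to 10.47, 10.38 and 10.39, without overlap. The adaptor Lcp2 (SLP-76) and the kinases Lck and Zap70 rose by 1.65, 0.65 and 0.71. Rasgrp2, an activator of Rap1, Ptpn22, a phosphatase of receptor kinases, Itpkb, which phosphorylates inositol trisphosphate, and Dgka, which removes diacylglycerol, differed by -2.23, -1.57, -1.45 and -1.41. In the MAP kinase list 9 of 29 rose and 9 fell as deposited (12 and 5 with arrays centred on all probe sets), beside 22.5% and 30.4% of all genes. Spry2, a feedback inhibitor, rose by 1.22, or by 0.93 without DMSO_0h replicate 2. The phosphatases Dusp10 and Dusp1 differed by -2.27 and -1.45. Of 41 PI3 kinase, mTOR and AMPK genes 12 rose and 19 fell (14 and 16 with arrays centred on all probe sets). Akt1 rose by 1.34, and the mTORC1 inhibitors Sesn3 and Sesn1 and the arginine sensor Castor1 fell by 1.41, 1.24 and 1.00, while Sesn2, the stress-induced relative, rose by 0.84.

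Interferon stimulated genes moved in both directions, with 16 of 52 higher and 20 lower (18 and 14 with arrays centred on all probe sets). Among all genes 22.5% rose and 30.4% fell. The interferon gamma-induced GTPases Iigp1, Irgm1 and Igtp, known from defence against intracellular parasites in mice, rose by 3.63, 1.99 and 1.86, and Bst2 (tetherin) by 1.84. The interferon-induced GTPases Gbp3, Gbp4 and Gbp7 were not called, at -0.13, 0.21 and 0.02. Irf7, the factor of type I interferon responses, fell by 2.54 to background, and Samd9l and Ddx58 (RIG-I) by 2.29 and 1.56. With dim genes filtered out, 15 rose and 13 fell. Of 16 antigen presentation genes 4 rose, such as the peptide trimmer Erap1 (1.18), and 9 fell. These included H2-Q7 and H2-Q4 (-1.44 and -1.37) and the class II genes H2-Aa and H2-Eb1 (-0.85 and -0.87), which B cells and dendritic cells express highly. Class Ib genes are near-identical copies, so their single values are uncertain.

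Smaller lymphocyte families changed as well. Of 28 Gimap, Ms4a, Ly6 and Slfn genes 5 rose and 17 fell. Ms4a4b, a T cell membrane protein, read 8.61, 8.93 and 8.63 at 0 h, 8.38, 8.04 and 7.57 at 18 h and 6.14, 5.61 and 5.76 at 48 h. It fell by 2.89, mostly after 18 h, and its relatives Ms4a4d, Ms4a4c and Ms4a6c differed by -2.78, -2.62 and -1.83. Ly6a (Sca-1), induced by interferon, rose by 2.52, mostly after 18 h (2.01). Slfn3 rose by 1.89 and Slfn1, whose relative Slfn2 supports T cell quiescence, fell by 1.65, with Slfn2 not called at 0.07.

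Of 53 chromatin genes 26 rose and 19 fell. Dnmt1, which maintains DNA methylation, and its partner Uhrf1 rose by 1.55 and 3.16, and Ezh2, the Polycomb methyltransferase of dividing cells, by 1.67. Phf19, a Polycomb-associated protein, Nsd2, a histone H3K36 methyltransferase, and Cbx5, a heterochromatin protein, rose by 2.78, 2.41 and 2.31, Phf19 from background. Ezh1, the counterpart of Ezh2 in resting cells, fell by 1.31, and the Polycomb reader Cbx7 by 1.21. The histone H3K4 methyltransferases Kmt2a and Kmt2d differed by -1.54 and -1.20, and Tet2 and Eed were not called, at 0.10 and 0.20.

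Of 44 p53 target and BCL2 family genes 18 rose and 8 fell. Bcl2l1 (BCL-XL) and Bcl2, which protect cells from death, rose by 1.24 and 0.40, and Bcl2l11 (BIM), which promotes it, fell by 1.87. The p53 targets Perp and Phlda3 rose by 2.63 and 1.85. Btg2 and Sesn1, also p53 targets, fell by 1.89 and 1.24, and Trp53 and the survival gene Mcl1 were not called, at 0.16 and 0.05.

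Lysosome and autophagy genes were mixed, with 14 of 42 higher and 15 lower (17 and 11 with arrays centred on all probe sets), beside 22.5% and 30.4% of all genes. The autophagy kinases Ulk1 and Ulk2, the membrane tags Map1lc3a and Map1lc3b and the receptor Sqstm1 differed by -1.36, -1.31, -1.31, -1.11 and -1.25. The protease Ctsz, the proton pump subunit Atp6v0a1 and the ceramidase Asah1 rose by 2.07, 1.57 and 1.33. Atg7, which activates those tags, and Gabarapl1, a tag of the same family, rose by 1.17 and 1.05.

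Actin and tubulin genes were mixed, with 23 of 48 higher and 11 lower. Stmn1 (stathmin), a regulator of microtubules in dividing cells, Tubb6 and the intermediate filament Vim rose by 1.67, 1.62 and 1.19, and Tubb2a and the actin crosslinker Actn1 fell by 1.72 and 1.57. On a list of 59 small GTPases and related signalling genes 19 rose and 26 fell (22 and 17 with arrays centred on all probe sets). Rhob, an inducible small GTPase, and Arhgef18, an exchange factor for such GTPases, differed by -2.63 and -1.93. Gng2, a gamma subunit of heterotrimeric G proteins and not a small GTPase, rose by 1.40. The small GTPase Rap2c rose by 1.21, and Cdc42 was not called at 0.06. Of 17 prenylation genes 9 rose, by at most 1.22 (Rabggtb, of the Rab transferase). The farnesyltransferase subunits Fnta and Fntb differed by -0.13 (not called) and 0.60 (called, with overlapping arrays).

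The later part of stimulation, tested as DMSO_48h against DMSO_18h, added 1748 rises (7.97%) and 1622 falls (7.4%) among all genes. This comparison and the one above share the DMSO_48h arrays, and differences from 0 h at both times share the DMSO_0h arrays. Without DMSO_48h replicate 2 there were 1801 calls in all and without DMSO_18h replicate 1 there were 2124, against 3370. Rises made up 51.9% of calls as deposited, 72.9% with arrays centred on all probe sets and 77.4% with arrays centred on gene probe sets. Of the 1908 genes at least 2-fold above fresh cells, 847 were called higher again, 15 lower and 1046 not called between 18 and 48 h. Of the 753 at least 2-fold below, 310 were called lower again, 19 higher and 424 not called.

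The lists differed in when their members moved. The mitosis list had a median of 1.67 at 18 h and 3.33 at 48 h, with 54 of 57 genes called higher between these times. Glycolysis went from 0.37 to 0.78, with 15 of 29 higher, and histones from 0.81 to 1.91, with 16 of 18 higher. Ribosome biogenesis had 1.31 at 18 h and 1.29 at 48 h, with 1 of 43 called higher and 2 lower in between, and the proteasome 0.69 and 0.70.

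Single genes with late differences were of several kinds. From 18 to 48 h Slc4a11, a membrane transporter, rose by 2.64, Scd1 by 2.54 and Cdkn1a by 2.41 (adjusted p = 1.37e-07). Tead1, Tnfsf4, Prss16, a serine protease known from the thymus, and Eaf2, an elongation factor cofactor, were called higher at 3.26, 2.95, 2.45 and 2.46, but were at background at 18 h, which limits the size of these differences. Fam83d, a spindle protein, read 7.90, 7.18 and 7.69 at 0 h, 6.08, 6.19 and 6.41 at 18 h and 8.77, 8.75 and 8.64 at 48 h, lower at 18 h than in fresh cells and highest at 48 h. Of the late falls, Ms4a4b, the nucleoside transporter Slc28a2 and Klf3, a relative of Klf2, differed by -2.16, -1.29 and -1.33. Ncoa7 was the reverse case, at 6.89, 7.36 and 6.96 at 0 h, 9.28, 9.71 and 9.54 at 18 h and 8.37, 8.41 and 7.90 at 48 h, with its peak at 18 h.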

How the data were processed

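Per the submitters' processing notes, Affymetrix Expression Console 1.1 and RMA made the deposited table, whose values the authors left in log2 units. Per the labels' protocols, biotinylated cDNA was made from 1 to 20 ng of total RNA. RMA corrects background, gives all arrays 1 distribution and summarises probes, so total RNA per cell is not measured. The genome build of the deposited table is not given in the sources used here. Of 28846 probe sets, 22202 name 1 gene, and 20464 gene probe sets matched a RefSeq table (GRCm38.p6) by accession, which updated 910 symbols. This gave 21928 genes, 180 of them with several probe sets.

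Group means of all 7 groups were fitted on 20 arrays with limma 3.58.1 in R 4.3.3 (median residual SD 0.155 on the log2 scale, with 13 residual degrees of freedom and 6.09 from the prior). Tests were 2-sided, with Benjamini-Hochberg adjustment over all genes at 0.05. No filter on dim genes was applied, and the script was tested on simulated data. At 3 arrays a group, the number of arrays limits the precision. The members, the 53 gene lists and the tests were chosen with earlier results of these data known. Genes named are the 20 largest rises and falls among called genes without overlap, up to 5 higher, 5 lower and 3 not called of each list, a fixed set, and the 10 largest rises and falls after 18 h. Alternatives were a dim filter (above the array median on at least 2 arrays), centring, fits on 6 arrays, quality weights, trended variances, all probe sets and leaving out each array.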

Additional observations from a re-analysis of the deposited data

How the results depend on the processing

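The numbers of genes called between 0 h and 48 h stayed within 1.5 times of 11599 (of 21928 genes) under every alternative run. They went from 9311 of the 12462 genes left by the dim filter to 11706 of 22202 gene probe sets. Leaving out 1 array at a time gave 10048 to 11429 calls, and 2583 to 2827 at least 2-fold. Between 18 h and 48 h the count depended more on single arrays, at 1801 to 3485 calls against 3370, with 1801 without DMSO_48h replicate 2 and 2124 without DMSO_18h replicate 1; the cause was not tested. Of 469 named genes called, 44 lost the call under at least 1 alternative, 33 of them with arrays centred on all probe sets, and 1 named gene reversed, Egr2, which was 0.03 with all arrays, -0.52 without DMSO_0h replicate 2 and 0.37 without replicate 1. Of the B cell markers 4 fell, against 1 with arrays centred on all probe sets, and of the myeloid markers 9 fell, against 3 with dim genes filtered out, since fewer were then tested. No paired analysis was possible because the labels give the groups no shared replicate numbers. The height of the background limits every gene at background in a group: 1960 called genes were at background in both groups, and their differences cannot be sized.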

Other observations

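Among the 20 largest falls were genes outside the functional lists. Tcp11l2, whose product is little described, read 9.43, 9.04 and 9.23 at 0 h and 5.36, 5.59 and 5.54 at 48 h, a difference of -3.73 ± 0.12 (SE) without overlap. Atp10d, a phospholipid flippase, and Slc3a1, the heavy chain of an amino acid transporter, differed by -3.41 and -3.40, the latter ending at background. Rflnb, a binding partner of filamin, and Kcnip2, a subunit of potassium channels, differed by -3.08 and -2.96. The interferon-inducible Ifi209 and the nucleoside transporter relative Slc28a2b were lower again after 18 h, with differences of -1.43 and -1.63 between 18 and 48 h.

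Among the largest rises, Mastl, the kinase that holds back a phosphatase in mitosis, read 4.45, 4.85 and 4.73 at 0 h and 8.89, 9.001 and 9.03 at 48 h, with a rise of 4.30 ± 0.17 (SE) from background. Ncapg2, a condensin subunit, and Fignl1, which acts in recombination, rose by 4.26 and 4.34, also from background. Smim3, a small membrane protein, read 5.21, 4.35 and 4.65 at 0 h, 4.45, 4.02 and 4.03 at 18 h and 6.31, 6.93 and 6.54 at 48 h, at background at 0 h and 18 h and above it at 48 h.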
